A study of Mus musculus with 2 samples.

Results

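The genes described here are 8 members of the matrix metalloproteinase (MMP) system, out of 32285 genes counted, in single cells of the mouse mammary gland. They are the 5 enzymes Mmp2, Mmp3, Mmp11, Mmp14 and Mmp23, and the 3 tissue inhibitors Timp1, Timp2 and Timp3, named with earlier results of these data known, and 18 other genes of the family are counted further on. Their transcripts were counted as unique molecular identifiers (UMIs, 1 per captured RNA molecule) in 2 droplet libraries. The library labelled Ctrl came from control mice and the library labelled CL from mice given clodronate liposomes, which kill the phagocytes that take them up. Liposomes were injected into the peritoneal cavity several times before the glands were harvested. Sample labels gave an age of 9 to 10 weeks, and the protocol gave 8 to 10 weeks. Mice were female and wild type, and no strain was given for these libraries. Glands were digested with enzymes, live CD31-TER119- cells were sorted (which removes endothelial and red blood cells), and the sorted cells were stored and thawed before capture. How many mice entered a library was not given in the sources used here.

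MMPs are zinc-dependent proteases that cut collagen, other matrix proteins, growth factors and each other, and in the mammary gland they take part in branching and involution. Most are secreted as inactive proenzymes and need cleavage to become active. TIMPs bind the active site of MMPs and block it, while TIMP2 together with MMP14 also helps to activate proMMP2 at the cell surface. TIMP3 differs from the other inhibitors in that it is held in the extracellular matrix, and it blocks several ADAM and ADAMTS proteases as well.

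With 1 library per group there was no replicate, so no test of the treatment could be run and no p-value is given. Levels are CPM (counts per 1e6, the UMIs of a gene per 1e6 UMIs of the cells summed), and ratios are log2 of CL over Ctrl, so that negative values mean lower in CL. Intervals are exact 95% intervals that cover counting error only, not the difference between mice or preparations or the spread between cells. After filtering, 5937 Ctrl cells with a median of 11351 UMIs and 8826 CL cells with a median of 10337 UMIs were retained, and 12 cell barcodes were retained in both libraries (none of these cells was fibroblast-like in both). Macrophage markers went against the treatment label: the sum of the 9 markers was 67.4 CPM over all retained Ctrl cells against 215 CPM over those of CL (log2 1.68, interval 1.64 to 1.72). By clusters, C1q-high macrophage-like cells were 0.67% of Ctrl and 0.49% of CL cells, and an unnamed Lyz2-high group 0.32% and 2.39%. In the Lyz2-high cells macrophage markers amounted to 6343 and 10069 CPM, beside neutrophil markers at 8943.5 and 6950 CPM. The marker sum thus includes cells that are not C1q-high, while the C1q-high share was lower in CL. The groups are therefore named by their library labels throughout, and a direction is a difference between these 2 libraries.

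Cells were named by clusters with marker lists and without the MMP and TIMP genes. Fibroblast-like cells (224 in Ctrl and 238 in CL) carried all 8 fibroblast markers, among them Col1a1 at 8474 CPM in Ctrl and 4160 CPM in CL. Their share of retained cells was 3.77% in Ctrl and 2.70% in CL. Basal-like cells numbered 408 and 444, hormone-responsive luminal-like cells 2110 and 2561, and secretory-lineage luminal-like cells 2622 and 3908. Smaller groups were endothelial-like cells (53 and 60, although the CD31- gate should leave few), C1q-high macrophage-like cells (40 and 43) and T and NK-like cells (213 and 735). A group with pericyte markers together with the smooth muscle genes Acta2 and Myh11 (37 and 44 cells) and a group with fibroblast and Schwann markers (29 and 32 cells) were left unnamed. Unnamed as well were cluster 16 (129 and 507 cells), which carried hormone-responsive together with secretory luminal markers at medians of 27782 and 26721 UMIs per cell, and 50 and 24 cells of the dividing cluster 18. Cluster 16 held 2.47% (Ctrl) and 9.57% (CL) of the UMIs of the 8 members, and its Timp3 was higher in CL (42.5 and 69.96 CPM, log2 0.72, interval 0.47 to 0.97). The 3 Ctrl and 19 CL B-like cells held no UMI of any member, which allows up to 252 (Ctrl) and 36.4 CPM (CL).

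Mmp2, Mmp3 and Mmp23 were concentrated in fibroblast-like cells, whereas Mmp14 and the inhibitors were spread over several classes. Fibroblast-like cells held 2.15% of all retained UMIs in Ctrl and 1.34% in CL, yet 38.1% and 21.5% of the UMIs of the 8 members. Of all retained Mmp3 UMIs, 96.9% in Ctrl and 96.8% in CL were in these cells, and of Mmp2 82.4% and 82.1%. Mmp23 followed with 62.3% and 55.9%. The shares were lower for Mmp14 (21.6% and 10.98%), Timp1 (21.1% and 12.5%), Timp2 (22.8% and 12.2%) and Timp3 (26.9% and 4.82%), since luminal-like and basal-like cells held many of their UMIs. Hormone-responsive luminal-like cells held 49.3% and 44.1% of the Mmp14 UMIs. Over both libraries, the retained cells held 20177 UMIs of Timp2, 14119 of Timp3, 8681 of Mmp14 and 7498 of Timp1. Mmp11 was the sparsest member with 131 UMIs, of which fibroblast-like cells held 41.9% in Ctrl and 23.2% in CL and hormone-responsive luminal-like cells 25.8% and 49.3%.

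**Figure D1:**
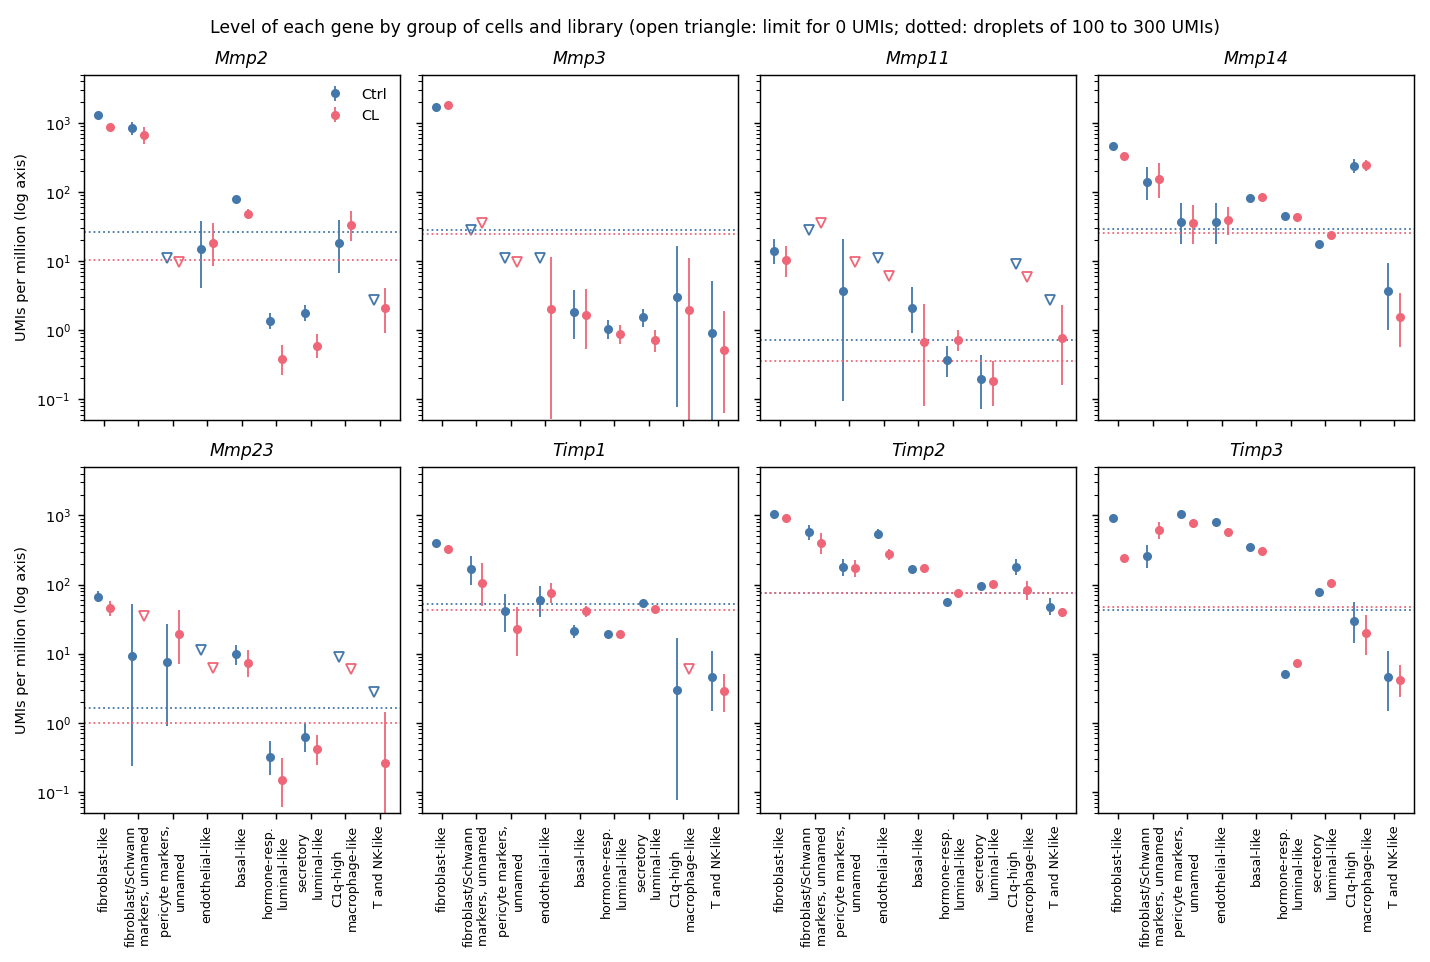
Level of the 8 genes (CPM, log axis) in 9 groups of cells, with Ctrl in blue and CL in red, vertical bars for exact 95% Poisson intervals, open triangles for the limit that 0 UMIs allow (3 counts) and dotted lines for the level in droplets of 100 to 300 UMIs. Mmp3 sits at 1712 and 1797 CPM in fibroblast-like cells and far lower elsewhere, while Timp3 is high in 5 groups and its CL point in fibroblast-like cells lies well below its Ctrl point.

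Mmp3 (stromelysin-1, which cuts many matrix proteins and activates other proMMPs) had the highest level of the enzymes in fibroblast-like cells, at 1712 CPM in Ctrl and 1797 CPM in CL. Over the class the libraries did not differ beyond counting error (log2 0.07, interval -0.00 to 0.14), but in each of the 6 subsets from 3 splits of it they did, with 5 higher in CL and 1 lower. The 3 splits reuse the same cells, so these are not 6 separate observations. The intervals also leave out the uneven spread of Mmp3 over cells. In CL, 1 cell held 160 of the 1419 Mmp3 UMIs of the cells with Pi16 or Dpp4. Mmp3 was higher in CL below the median depth (1032 and 1251 CPM, log2 0.28, interval 0.08 to 0.48) and at or above it (1844 and 2067 CPM, log2 0.17, interval 0.08 to 0.25). The ratio was 0.10 (interval 0.00 to 0.20) in cells with Pi16 or Dpp4 and 0.15 (0.04 to 0.26) in cells with neither. It was higher in subcluster A (log2 0.12, interval 0.04 to 0.19) and lower in subcluster B (log2 -0.24, interval -0.46 to -0.02), groups described with Timp3. Basal-like cells had 1.84 and 1.67 CPM from 7 and 5 UMIs, below the 28.0 and 25.0 CPM of droplets of 100 to 300 UMIs and read as background, so no fold is given against them. No Mmp3 UMI was found in the group with pericyte markers or in the group with fibroblast and Schwann markers, although the latter had Mmp2 at 833 and 664 CPM. In that group 0 UMIs allow up to 27.8 (Ctrl) and 35.6 CPM (CL), at medians of 3028 and 2169.5 UMIs per cell. Mmp3 thus differed between 2 groups of cells that both carried fibroblast transcripts, for the 8 markers amounted to 41823 and 27934 CPM in fibroblast-like cells and to 34586 and 26959 CPM in the unnamed group.

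Within fibroblast-like cells Mmp3 was uneven. It was absent from 43.3% of Ctrl and 40.8% of CL cells, had a median of 2 UMIs in both libraries and reached 142 UMIs in a Ctrl cell and 160 in a CL cell. The 23 Ctrl cells and 24 CL cells with most Mmp3 held 58.4% and 63.2% of its UMIs. The same number of cells held 35.7% and 37.4% of the UMIs of Mmp2 and 31.5% and 39.0% of those of Timp2, so these genes were more evenly spread. Cells with at least 1 Mmp3 UMI were deeper (median 9057 against 6183 UMIs in Ctrl, and 6622 against 4611 in CL). On the CPM scale, the cells with Mmp3 had more Timp2 (1263 against 666 CPM in Ctrl, 1009 against 685 CPM in CL) and less Timp3 (780 against 1146 CPM, and 211 against 307 CPM). Mmp2 was also higher in the cells with Mmp3, at 1455 against 1034 CPM in Ctrl and 899 against 783 CPM in CL. These splits rest on detection of Mmp3, which moves with depth, and the part of depth in them was not tested.

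Mmp2 (gelatinase A, which degrades denatured collagen and basement membrane collagen) was at 1302 CPM in Ctrl and 862 CPM in CL fibroblast-like cells. The level was 1.51-fold lower in CL (log2 -0.59, interval -0.69 to -0.50), just past the 1.5-fold limit used here, and with no mitochondrial limit on cells the ratio was -0.49, short of it. It was found in 87.9% of Ctrl and 80.7% of CL fibroblast-like cells, and after each cell was thinned to 1571 UMIs in 66.7% and 66.4%. The shares at equal depth were thus close although the levels were not. In cells below the median depth of the class, Mmp2 was higher in CL (627 and 754 CPM, log2 0.27, interval 0.01 to 0.52), while at or above it Mmp2 was lower (1433 and 916 CPM, log2 -0.65, interval -0.76 to -0.54). The direction for Mmp2 therefore differed between shallow and deep cells. In the other splits Mmp2 was lower in CL beyond counting error. The ratio was -0.34 in cells with Pi16 or Dpp4 and -0.78 in cells with neither. Subclusters A and B, described with Timp3, had ratios of -0.56 and -0.67.

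Basal-like cells had Mmp2 at 78.2 CPM in Ctrl and 47.8 CPM in CL (297 and 143 UMIs, log2 -0.71, interval -1.01 to -0.42). Fibroblast markers summed to 299 and 178 CPM in the same cells, so the Mmp2 level moved with fibroblast transcripts there, and their part in it was not tested. Thinned to 2061 UMIs, 17.3% of Ctrl and 10.2% of CL basal-like cells had Mmp2. Droplets of 100 to 300 UMIs, which hold free RNA, had Mmp2 at 26.5 CPM in Ctrl and 10.3 CPM in CL (log2 -1.37, interval -1.69 to -1.05). If all Mmp3 in basal-like cells were free RNA, free RNA would give 1.74 and 0.69 CPM of their Mmp2. C1q-high macrophage-like cells had 18.04 and 33.6 CPM from 6 and 17 UMIs, below the droplets in Ctrl and above them in CL, and in CL not beyond counting error from basal-like cells. In luminal-like cells Mmp2 lay far under the droplets, at 1.36 and 0.38 CPM in the hormone-responsive class and 1.80 and 0.60 CPM in the secretory class. Mmp3 was as low there, at 1.03 and 0.89 CPM, and 1.53 and 0.71 CPM, and is read as background in these cells together with Mmp2. Beside the 56.7% and 59.2% of fibroblast-like cells with an Mmp3 UMI, 1.60% and 0.79% of secretory luminal-like cells had 1, at medians of 9670 and 9138 UMIs per cell against 7931.5 and 5512.5 in fibroblast-like cells.

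Mmp14 (MT1-MMP, a membrane-anchored collagenase that activates proMMP2) was the most widely detected enzyme. Fibroblast-like cells led with 465 CPM in Ctrl and 329 CPM in CL (log2 -0.50, interval -0.66 to -0.34). C1q-high macrophage-like cells came next with 237 and 243 CPM (79 and 123 UMIs), and 72.5% and 88.4% of them had the gene. These levels in macrophage-like cells did not differ beyond counting error (log2 0.04, interval -0.38 to 0.46), but the ratio was -0.90 when each cell was named alone by its own marker UMIs. In the unnamed Lyz2-high group of 19 Ctrl and 211 CL cells, led by Lyz2, S100a8 and S100a9, Mmp14 was lower. It had 0 UMIs in Ctrl, which allows up to 27.4 CPM, and 41.4 CPM in CL, 5.87-fold under the C1q-high cells of that library.

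The epithelial classes had Mmp14 in the same order in both libraries. Basal-like cells had 81.6 and 83.8 CPM, hormone-responsive luminal-like cells 45.1 and 43.8 CPM, and secretory luminal-like cells 17.5 and 24.2 CPM. The hormone-responsive level exceeded the secretory one 2.57-fold in Ctrl and 1.81-fold in CL. Between libraries the basal-like and hormone-responsive levels did not differ beyond counting error, although in 1 of 5 hormone-responsive clusters Mmp14 was lower in CL (63.5 and 50.8 CPM, log2 -0.32, interval -0.49 to -0.15), while the secretory level was higher in CL (log2 0.46, interval 0.31 to 0.62). All 5 secretory clusters with at least 20 cells in each library had a higher CL value (log2 0.15 to 0.85), and 2 of the 5 did so beyond counting error. The droplets had 29.4 and 25.7 CPM of Mmp14, and in luminal-like cells free RNA at the rate set by Mmp3 would give at most 1.61 CPM.

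Mmp23, an atypical membrane-bound MMP, and Mmp11 (stromelysin-3, known from stroma around epithelium) were the low members. Mmp23 had 67.1 CPM in Ctrl and 45.2 CPM in CL fibroblast-like cells (124 and 71 UMIs, log2 -0.57, interval -1.01 to -0.14). Basal-like cells had 9.74 and 7.35 CPM, and luminal-like cells under 1 CPM. Mmp11 had 14.1 and 10.2 CPM in fibroblast-like cells, from 26 and 16 UMIs, and the libraries could not be told apart at this depth (log2 -0.46, interval -1.46 to 0.49). In hormone-responsive luminal-like cells its counts were 16 in Ctrl and 34 in CL (0.37 and 0.72 CPM), in 0.71% and 1.29% of the cells. Exons of Mmp11 overlap exons of Chchd10 on the opposite strand, a gene with 21203 UMIs in retained cells, and counts this low cannot be assigned with certainty since the strand setting of the counting was not given in the sources used here.

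Timp3 showed the largest difference between libraries of any member in fibroblast-like cells. It was at 913 CPM in Ctrl (1688 UMIs) and 241 CPM in CL (378 UMIs), 3.79-fold lower (log2 -1.92, interval -2.09 to -1.76). Among the 6700 genes with at least 50 UMIs in these cells, Timp3 ranked 12 from the lowest ratio, and the median ratio was -0.03. The upper quartile was 8.25 UMIs per cell in Ctrl and 1.75 in CL. Timp3 was found in 74.6% of Ctrl and 36.6% of CL fibroblast-like cells, and in 52.2% and 23.4% after thinning to 1571 UMIs, so that the share of cells as well as the level was lower. After thinning, 17 Ctrl and 24 CL cells were left out as too shallow. Exons of Timp3 overlap those of Syn3 on the opposite strand, but Syn3 had 439 UMIs in all retained cells against 14119 of Timp3.

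The lower Timp3 level was found in each split of the fibroblast-like cells. In cells with Pi16 or Dpp4, markers of a progenitor-like fibroblast state, its level stood at 890 (Ctrl) and 306 CPM (CL) (log2 -1.54, interval -1.78 to -1.31). In cells with neither it was 932 and 200 CPM (log2 -2.22, interval -2.45 to -2.00). The 2 subclusters gave the same direction: subcluster A (180 and 183 cells, led by the matrix genes Postn and Thbs2) had 931 and 241 CPM, and subcluster B (44 and 55 cells, led by Cxcl5 and Thbd) had 777 and 242 CPM. Below the median depth the levels were 541 and 219 CPM, and at or above it 985 and 251 CPM. Subclusters were made from the same cells and describe them only.

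**Figure D2:**
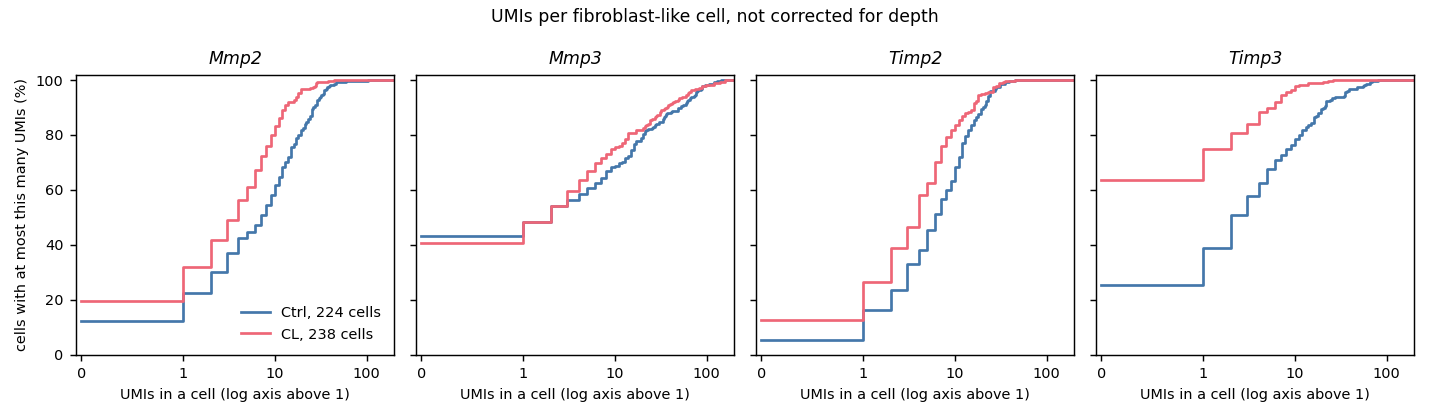
Share of fibroblast-like cells (percent) with at most a given number of UMIs of Mmp2, Mmp3, Timp2 and Timp3 (log axis above 1), for 224 Ctrl cells in blue and 238 CL cells in red, not corrected for depth. The curves start at the share of cells with no UMI, which for Timp3 is 25.4% in Ctrl and 63.4% in CL and for Mmp3 43.3% and 40.8%, and the Mmp3 curves stay close while the Timp3 curves are far apart.

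**Figure D3:**
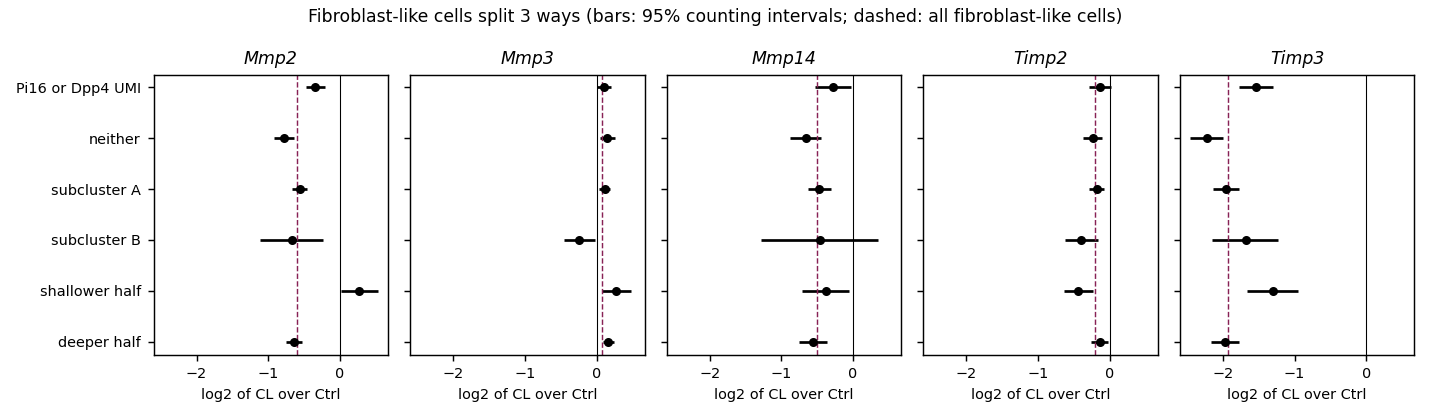
Ratio of CL over Ctrl (log2) for Mmp2, Mmp3, Mmp14, Timp2 and Timp3 in fibroblast-like cells split by Pi16 or Dpp4 UMIs, by subcluster and at the median depth, with 95% counting intervals and a dashed line at the value of the whole class. Timp3 lies between -2.22 and -1.30 in all 6 subsets, while Mmp2 lies on opposite sides of 0 in shallow and deep cells.

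Other transcripts of fibroblast-like cells moved between the libraries too. The marker Col1a1 was lower in CL (log2 -1.03), as were Col1a2 (-1.04), Col3a1 (-0.75) and Pdgfra (-0.64), while Dcn (decorin) was near level (-0.19) and Dpt was higher (0.22). In fibroblast-like cells the 8 secretory luminal markers amounted to 458 and 766 CPM, with 1 marker at 0 in CL, and the 8 pericyte markers to 267 and 177 CPM, with 1 marker at 0 in each library. The 8 endothelial markers amounted to 22.7 and 37.6 CPM. The median depth was 7931.5 UMIs in Ctrl and 5512.5 in CL, at median mitochondrial shares of 2.23% and 2.40%. The part of these in the Timp3 value was not tested. When the 29 and 32 unnamed cells with fibroblast and Schwann markers, in which Timp3 was higher in CL (259 and 617 CPM, from 28 and 52 UMIs), were added to the class, the ratio was -1.75. In those unnamed cells the Schwann markers amounted to 1212 and 6084 CPM and the fibroblast markers to 34586 and 26959 CPM. The part of this in their Timp3 levels was not tested.

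Timp2 and Timp1 differed less in fibroblast-like cells. Timp2, the inhibitor with most UMIs in these cells in both libraries, stood at 1046 and 908 CPM (log2 -0.20, interval -0.30 to -0.10). It was found in 94.6% of Ctrl and 87.4% of CL cells, the widest of any member. Its ratio was within counting error in cells with Pi16 or Dpp4 (-0.14, interval -0.29 to 0.01) and lower beyond it in each other subset. Timp1, an inducible secreted inhibitor, was at 395 and 322 CPM (log2 -0.29, interval -0.46 to -0.13). The Timp1 ratio was within counting error in subcluster A (-0.14, interval -0.33 to 0.06) and in cells without Pi16 and Dpp4 (-0.04, interval -0.26 to 0.18), and lower in subcluster B (-0.91) and in cells with Pi16 or Dpp4 (-0.63). Subcluster B had more of both than subcluster A in each library: 958 and 511 CPM of Timp1 against 319 and 290 CPM, and 1594 and 1212 CPM of Timp2 against 972 and 856 CPM. It had less Mmp2 (527 and 330 CPM against 1407 and 952 CPM) and less Mmp14 (145 and 106 CPM against 508 and 366 CPM). Mmp23 was higher in subcluster B (145 and 79.3 CPM against 56.5 and 39.5 CPM), so the enzymes did not share a direction.

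Over the class, 7 members reached 50 UMIs, of which 2 (Mmp2 and Timp3) were at least 1.5-fold lower in CL and none was as much higher. Of all genes with at least 50 UMIs in these cells, 8.42% were as much lower and 5.09% as much higher. Without a fold limit, 6 of the 7 were lower beyond counting error, with Mmp3 the exception, against 12.5% of all these genes, and the median ratio of the 7 was -0.50. Such a call depends on the number of UMIs, and the 12.5% covers genes down to 50 UMIs. Members lay above that, from 124 and 71 UMIs (Mmp23) to 3165 and 2821 (Mmp3), so the shares are not like for like. Summed, the 5 enzymes had 3559 CPM in Ctrl and 3044 CPM in CL (log2 -0.23, interval -0.28 to -0.17) and the 3 inhibitors 2354 and 1471 CPM (log2 -0.68, interval -0.75 to -0.61). Without Mmp3 the enzymes gave -0.57, and without Timp3 the inhibitors gave -0.23, so that each sum depended on 1 gene. The count of enzyme UMIs per inhibitor UMI was 1.51 in Ctrl (interval 1.46 to 1.57) and 2.07 in CL (1.97 to 2.18). Without Timp3 it was 2.47 in both libraries (intervals 2.36 to 2.58 and 2.35 to 2.61).

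**Figure D4:**
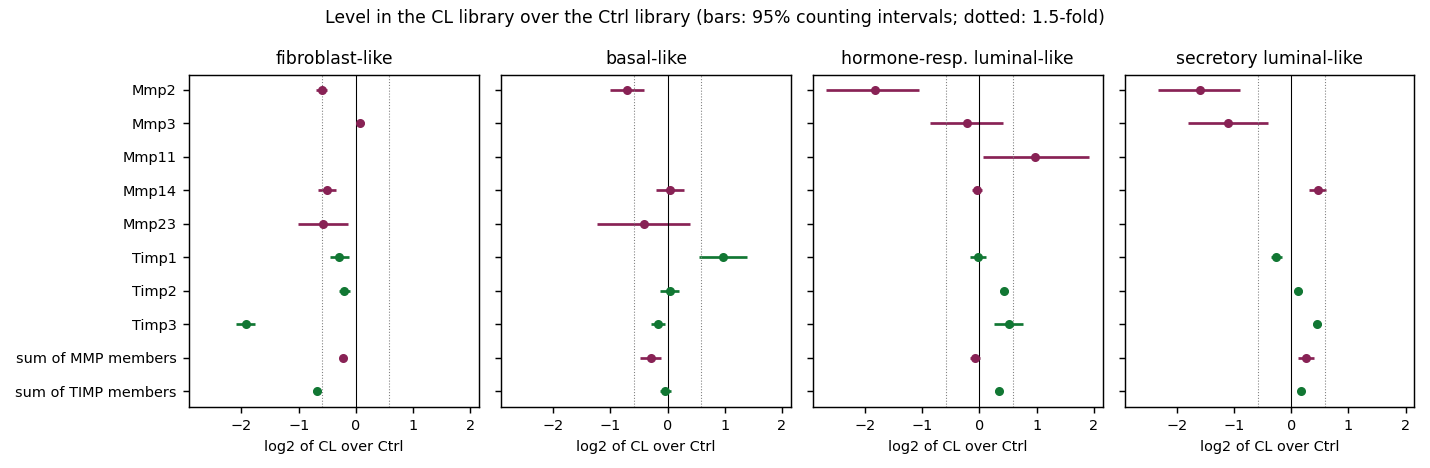
Ratio of CL over Ctrl (log2) for each gene with at least 50 UMIs, and for the summed enzymes and inhibitors, in 4 classes of cells, with enzymes in purple, inhibitors in green, 95% counting intervals as bars and dotted lines at 1.5-fold. Timp3 stands at -1.92 in fibroblast-like cells and at -0.17, 0.51 and 0.45 in the basal-like, hormone-responsive and secretory luminal-like classes.

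Timp3 had its highest Ctrl levels in the unnamed group with pericyte markers, in fibroblast-like cells and in endothelial-like cells. The group with pericyte markers had 1066 CPM in Ctrl and 765 CPM in CL, and 97.3% and 93.2% of its cells had a UMI. No UMI of Mmp2 or Mmp3 was counted in these cells, which allows up to 11.2 (Ctrl) and 9.72 CPM (CL). Endothelial-like cells had 799 and 582 CPM of Timp3. Secretory luminal markers amounted in these cells to 1063 and 2327 CPM, hormone-responsive markers to 353 and 1314 CPM, pericyte markers to 152 and 47.3 CPM and their own markers to 6229 and 4965 CPM, and the part of these in the ratios was not tested. Their Timp2 was at 535 and 273 CPM, against 179 and 172 CPM in the pericyte-marker group. Their Timp3 ratio of -0.46 (interval -0.72 to -0.20) was -0.02 when each cell counted equally and -0.92 when each cell was named alone. In Ctrl the order was pericyte-marker cells, then fibroblast-like and endothelial-like cells (not distinguishable by their counts), then basal-like cells at 345 CPM. In CL fibroblast-like cells stood below endothelial-like cells (2.42-fold) and below basal-like cells at 306 CPM (1.27-fold), so that the rank of the fibroblast-like class in Timp3 differed between the libraries.

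The promoters of Mmp3 and Timp3, the enzyme and the inhibitor that stood furthest apart in fibroblast-like cells, are shown as the RefSeq bases upstream of the start (GRCm38.p6), 5' to 3' in the direction of the gene. The Mmp3 stretch is chr9:7445572-7445821 on the plus strand, with matches to the AP-1 letters TGANTCA and the TATA box letters TATAAA (searched on both strands) in capitals. The Timp3 stretch is chr10:86300162-86300371 on the plus strand, and ends where the earlier of the RefSeq and GENCODE starts lies, with no match in it to these letters.
Mmp3: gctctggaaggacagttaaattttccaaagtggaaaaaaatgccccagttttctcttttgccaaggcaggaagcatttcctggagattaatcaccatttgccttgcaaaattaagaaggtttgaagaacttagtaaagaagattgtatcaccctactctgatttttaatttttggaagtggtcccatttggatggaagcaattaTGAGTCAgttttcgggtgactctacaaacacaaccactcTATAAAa
Timp3: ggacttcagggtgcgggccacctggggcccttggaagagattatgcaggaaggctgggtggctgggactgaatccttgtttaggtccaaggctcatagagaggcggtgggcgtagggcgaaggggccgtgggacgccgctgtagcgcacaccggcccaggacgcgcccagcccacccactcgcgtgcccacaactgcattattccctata
Of the 7 members with a promoter in the table, which spans 250 bases before to 50 after the RefSeq start, 1 (Mmp3, at position -46) held TGANTCA, against 7.81% of 32851 mouse promoters. TATAAA was found in 1 (Mmp3 again, at -7) against 13.6%, and the GC box GGGCGG in 6 (all but Mmp3, and for Mmp23 in 1 of its 2 entries) against 35.7%. The AP-1 subunits Fos, Fosb and Jun, which also mark dissociation stress, in fibroblast-like cells stood at 1177, 1403 and 763 CPM in Ctrl and 1294, 1396 and 935 CPM in CL. Such matches describe letters only.

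In GENCODE M21 on GRCm38, Mmp3 (ENSMUSG00000043613) lies on chromosome 9 from 7445822 to 7455975 and Timp3 (ENSMUSG00000020044) on chromosome 10 from 86300372 to 86349506, both on the plus strand. Mmp2 (ENSMUSG00000031740) lies on chromosome 8 from 92827291 to 92853420, Mmp14 (ENSMUSG00000000957) on chromosome 14 from 54431612 to 54445364, and Timp1 (ENSMUSG00000001131) on chromosome X from 20870166 to 20874735, all on the plus strand. Mmp11 (ENSMUSG00000000901), Timp2 (ENSMUSG00000017466) and Mmp23 (ENSMUSG00000029061) lie on the minus strand, on chromosome 10 from 75923222 to 75936496, chromosome 11 from 118301069 to 118355740 and chromosome 4 from 155650655 to 155653384. All 8 are protein-coding. Timp1 lies within Syn1 on the opposite strand and Timp2 spans Cep295nl on its own strand, in both cases without shared exons.

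Luminal-like cells had inhibitors with almost no secreted enzyme. In secretory luminal-like cells, Timp2 was at 93.9 CPM in Ctrl and 102.1 CPM in CL, Timp3 at 76.9 and 105 CPM, and Timp1 at 53.2 and 44.4 CPM. Hormone-responsive luminal-like cells had 55.4 and 74.7 CPM of Timp2 and 19.4 and 19.0 CPM of Timp1, but only 5.08 and 7.23 CPM of Timp3. The droplets had 75.3 and 75.9 CPM of Timp2, 52.8 and 43.0 CPM of Timp1 and 43.2 and 46.6 CPM of Timp3, above the hormone-responsive levels. Free RNA at the rate set by Mmp3 would give 2.78 and 2.70 CPM of Timp2, 1.95 and 1.53 CPM of Timp1 and 1.59 and 1.66 CPM of Timp3 in that class. Timp3 thus divided the luminal lineages, with the secretory level 15.2-fold higher in Ctrl and 14.5-fold higher in CL. These folds are of counted levels with no free RNA subtracted, over a hormone-responsive level below the droplets. Timp1 followed with 2.74-fold and 2.34-fold, and Timp2 with 1.70-fold and 1.37-fold. A Timp3 UMI was found in 27.2% and 32.5% of secretory cells against 6.40% and 6.64% of hormone-responsive cells, whose median depth was higher (20036 and 16762 UMIs).

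Timp3 was higher in CL in the secretory class as a whole (log2 0.45, interval 0.37 to 0.52), but not in each of its clusters. In 3 of the 5 clusters with at least 20 cells in each library it was higher in CL (122 and 192 CPM, 117 and 162 CPM, and 38.6 and 64.6 CPM), and in the other 2 it was lower (38.3 and 29.96 CPM, and 114 and 92.3 CPM), each beyond counting error. The class also took different shares of its cells from these clusters: cluster 7 held 192 Ctrl and 769 CL cells, and cluster 11 held 9 and 635. The lower Timp1 level of the class (log2 -0.26, interval -0.36 to -0.16) rested on 2 of the 5 clusters (68.1 and 49.5 CPM, and 52.0 and 30.6 CPM). Timp2 was little higher (log2 0.12, interval 0.05 to 0.19), beyond counting error in 2 of the 5.

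Of the 6 members with at least 50 UMIs in secretory luminal-like cells, Mmp2 and Mmp3 were at least 1.5-fold lower in CL, at the background levels given above, and none was as much higher. Among all genes tested there, 3.99% were as much lower and 2.43% as much higher. In hormone-responsive luminal-like cells 7 members were counted, with Mmp2 as much lower and the sparse Mmp11 as much higher, against 4.4% and 2.89% of genes. The Mmp11 ratio there was 0.44 with a mitochondrial limit of 5% and 0.53 with each cell named alone, both short of 1.5-fold, and that of Mmp2 ranged from -4.65 (free RNA subtracted) to -1.50 over the alternatives. Timp2 was higher in CL in this class (log2 0.43, interval 0.36 to 0.51), and after thinning to 6843 UMIs it was found in 28.5% of Ctrl and 37.1% of CL cells. By cluster, Timp2 was higher beyond counting error in 1 of 5 (47.5 and 62.0 CPM) and within it in the other 4. The clusters took different shares of the class in each library: cluster 3 held 835 Ctrl and 43 CL cells, cluster 15 held 175 and 960, and cluster 2 held 536 and 1000. The Timp3 ratio of the class (log2 0.51, interval 0.26 to 0.76) rested on the cells of cluster 18, which holds dividing cells, where 16 UMIs in 90 Ctrl cells stood against 86 UMIs in 59 CL cells. Without them it was 0.16, and it was 1.48 when each cell was named alone.

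Basal-like cells, the myoepithelial layer that touches the basement membrane, had Timp3 at 345 CPM in Ctrl and 306 CPM in CL (log2 -0.17, interval -0.30 to -0.05) and Timp2 at 170 and 174 CPM. After thinning to 2061 UMIs, 45.7% and 47.5% of cells had Timp3. Timp1 was higher in CL, at 21.1 and 41.1 CPM (80 and 123 UMIs, log2 0.96, interval 0.55 to 1.39), but 10.3% of Ctrl and 10.1% of CL cells had the gene and single cells held up to 13 and 14 UMIs. When each cell counted equally the Timp1 ratio was 0.41. Droplets had Timp1 at 52.8 and 43.0 CPM, above the basal-like level in both libraries. Free RNA at the rate set by Mmp3 (7 and 5 UMIs there) would give 3.47 and 2.88 CPM of Timp1 in basal-like cells. Of the 6 members with at least 50 UMIs, Mmp2 was at least 1.5-fold lower and Timp1 as much higher, against 6.26% and 2.78% of all genes tested in basal-like cells.

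**Figure D5:**
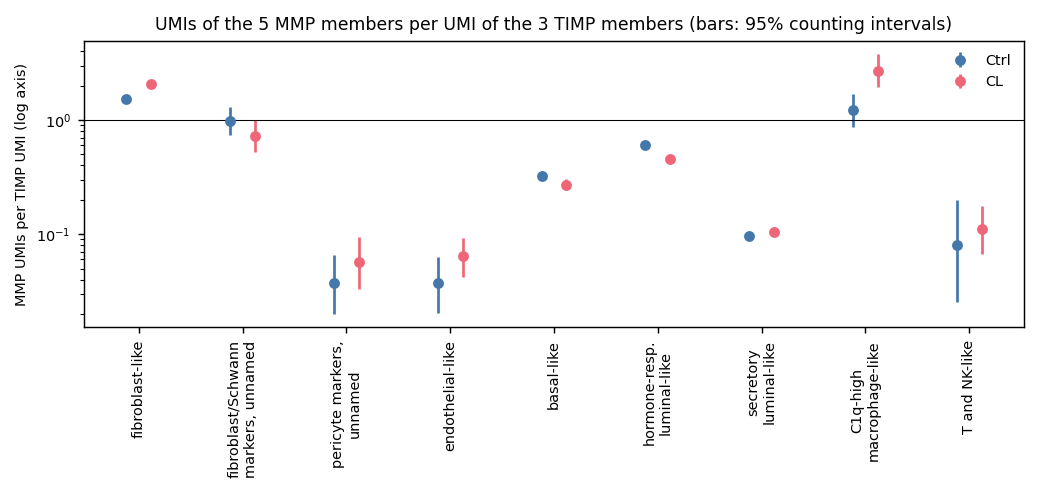
UMIs of the 5 enzymes per UMI of the 3 inhibitors (log axis) in 9 groups of cells, with Ctrl in blue, CL in red, bars for 95% counting intervals and a line at 1. Fibroblast-like cells (1.51 and 2.07) and the C1q-high macrophage-like cells of CL (2.71) lie above 1, the macrophage-like cells of Ctrl (1.21) have an interval that includes it, while the pericyte-marker group and the endothelial-like cells (0.04 and 0.06 in each) and secretory luminal-like cells (0.10 in both libraries) lie far below it.

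The balance of enzyme to inhibitor UMIs differed between classes. Secretory luminal-like cells had 0.10 enzyme UMIs per inhibitor UMI in both libraries, hormone-responsive luminal-like cells 0.60 and 0.46, and basal-like cells 0.32 and 0.27. In the hormone-responsive class nearly all enzyme UMIs were Mmp14 (1963 of 2097 in Ctrl and 2071 of 2172 in CL). C1q-high macrophage-like cells had 1.21 and 2.71, from Mmp14 as given above and Timp2 at 180 CPM in Ctrl and 83.1 CPM in CL (60 and 42 UMIs, log2 -1.12, interval -1.72 to -0.52). The 10 dissociation stress genes summed to 6337 and 4057 CPM in these cells (log2 -0.64, interval -0.73 to -0.56), with 6 of the 10 at least 1.5-fold lower in CL, and their part in the Timp2 value was not tested. This balance counts the 5 enzymes only (259 and 279 CPM in macrophage-like cells), while the other 18 genes of the family summed to 4783 and 2968 CPM there. T and NK-like cells had Timp2 at 48.0 and 39.6 CPM, below the 75.3 and 75.9 CPM of the droplets, and few UMIs of the others. Free RNA at the rate set by Mmp3 (1 and 2 UMIs there) would give 2.48 and 1.59 CPM of Timp2 in these cells. A count of UMIs says nothing of enzyme activity, which depends on activation and binding.

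The other 18 genes of the family that were counted lay mostly outside fibroblast-like cells or were near 0. A total of 6 had at least 200 UMIs over retained cells, Mmp16 and Mmp17 had 126 and 75, and 10 had under 50, among them Mmp1b and Mmp20 with none. Mmp12 (macrophage elastase) was at 3604 CPM in Ctrl and 1949 CPM in CL C1q-high macrophage-like cells (log2 -0.89, interval -1.01 to -0.76), where Mmp13 also had 93.3% of its 906 UMIs. The summed dissociation stress genes were at log2 -0.64 in these cells, and their part in the Mmp12 value was not tested. Mmp15, a membrane-bound relative of Mmp14, had most of its UMIs in luminal-like cells, where the hormone-responsive class reached 50.5 and 45.4 CPM and the secretory class 42.4 and 37.9 CPM. In fibroblast-like cells 3 of the 18 reached 50 UMIs: Mmp19 was lower in CL (474 and 187 CPM, log2 -1.34, interval -1.54 to -1.15), Mmp16 was lower (48.7 and 19.1 CPM), and Mmp12 had 17.3 and 33.8 CPM. These Mmp12 UMIs were in 5 cells of each library, 1 of which held 17 of 32 UMIs in Ctrl and 1 held 31 of 53 in CL, and 89.4% of all Mmp12 UMIs were in macrophage-like cells. The share of cells with Mmp12 was 2.232% and 2.101% in fibroblast-like and 0.95% and 0.18% in secretory luminal-like cells, and droplets had 13.6 and 8.11 CPM.

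Lists of neighbouring pathways gave mixed directions in fibroblast-like cells, to be read against the 8.42% of all genes lower and 5.09% higher by 1.5-fold. Of 5 counted activators and other inhibitors of MMPs, 3 were at least 1.5-fold lower in CL: Reck, a membrane-anchored MMP inhibitor (118 and 70.7 CPM), the proprotein convertase Pcsk5 (119 and 68.8 CPM) and Tfpi2 (172 and 113 CPM). The proprotein convertase Furin (79.5 and 92.4 CPM) and the MMP inducer Bsg (440 and 445 CPM) did not differ beyond counting error. Of 13 ADAM and ADAMTS proteases, Adam9, Adamts2 and Adamts4 were as much lower and Adam12 and Adamts5 as much higher, with Adamts5, an aggrecan-cleaving enzyme, at 163 and 278 CPM. The list members with most UMIs over all retained cells, Adamts1 (618 and 514 CPM), Adam10 (38.4 and 46.5 CPM) and Adam17 (37.9 and 45.2 CPM), stayed within 1.5-fold. None of 5 plasminogen activation genes passed 1.5-fold, with Plat at 646 and 583 CPM, Plaur at 161 and 164 CPM and Plau at 61.6 and 44.0 CPM. The list medians were -0.61 for activators and inhibitors, 0.00 for ADAM and ADAMTS and -0.15 for plasminogen activation, beside -0.03 for all genes. The 10 dissociation stress genes summed to 11256 and 10022 CPM, with Hspa1a and Hspa1b at least 1.5-fold lower.

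The genes whose levels over 7 classes and 2 libraries (14 points, which share libraries and depth) were most like each member were sought among 12040 genes by Pearson correlation of log2(CPM + 1). The genes most like Mmp3 included Tmem132c and Lsamp (r = 0.99 for each), and Mmp23 was most like Il34, Fbln1 and Adamts2 (r from 0.99 to 1.00). Mmp2 was most like Hgf, P3h3 and Rnase4 (0.96 to 0.97), and Mmp11 like Aldh1a1, Mrc2 and Ssr3 (0.96 to 0.98). Mmp14 had weaker likenesses in Rab12, Lamp1 and Grn (0.93 to 0.95), the last 2 being lysosomal genes. Timp3 was most like Mpdz, Lrrc58 and Rai14 (0.95 to 0.98), Timp2 like Bmp2, Col15a1 and Crtap (0.95 for each), and Timp1 like Fsd1l, Exoc6b and Tex264 (0.96 for each). Among the members the closest pair was Mmp11 and Mmp23 (0.94), and Timp3 was less like Mmp3 (0.41) than like Timp2 (0.85).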

How the data were processed

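Raw UMI counts were deposited by the authors as 2 unfiltered 10x matrices. The matrix header names Cell Ranger 4, while the submitters' processing notes name version 2.1.1 and mm10. Counts were not normalized. The barcodes with most UMIs, as many as each deposited cell list holds (7217 Ctrl, 10555 CL), were taken as cells, and those with at least 500 genes and at most 15% mitochondrial UMIs were kept. Doublets were removed with Scrublet in scanpy 1.11.5 (360 and 509). The Ctrl threshold was used for CL, where the automatic one marked 0 cells. Clusters came from 2000 variable genes without the members and lists, 30 components and Leiden resolution 1.0, and were named when at least 3 markers of a class stood 2 times above the median cluster no other class reached 60% of its score and no other class had more markers among the top 10 genes. In clusters led by division genes, cells whose own markers gave another class were left unnamed. Members and gene lists were chosen with earlier results of these data known. All 8 members are reported, and of each list the 3 genes with most UMIs and any gene that a count of 5 or fewer leaves. Libraries held 118743318 and 155765480 UMIs. Intervals are exact (Poisson, binomial and conditional binomial, scipy 1.17.1). On simulated counts of 6700 genes in fibroblast-like cells, they held the true ratio for 95.5% of 200 changed genes. The simulated class totals were drawn from the Poisson model that the intervals assume, without single cells. This share therefore checks the computation only, not the spread between cells. A 3' UMI counts a molecule once whatever its length, so CPM values of different genes were set side by side. The 17 planned and 6 added alternatives included TMM factors from edgeR 4.0.16. A gene among those most like a member is not reported here.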

Additional observations from a re-analysis of the deposited data

Results flagged for a closer look

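Members that were lower in CL in one class and higher in another, each beyond counting error, are listed here for the named classes, with the lowest and the highest ratio. With 1 library per group these differences between classes were not tested. Timp3 was lower in fibroblast-like cells (log2 -1.92) and higher in hormone-responsive luminal-like cells (0.51), a difference of 2.43, although the second value was 0.16 without the cells of cluster 18. Timp1 was lower in fibroblast-like cells (-0.29, within counting error in subcluster A and in cells without Pi16 and Dpp4) and higher in basal-like cells (0.96), a difference of 1.26. Mmp14 was lower in fibroblast-like cells (-0.50) and higher in secretory luminal-like cells (0.46), a difference of 0.96. Timp2 was lower in C1q-high macrophage-like cells (-1.12, from 60 and 42 UMIs, in cells whose summed dissociation stress genes were at -0.64) and higher in hormone-responsive luminal-like cells (0.43), a difference of 1.55, and it was also lower in endothelial-like (-0.97) and fibroblast-like cells (-0.20).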

How the results depend on the processing

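The ratios of members with at least 50 UMIs in a named class were recomputed, as were the summed enzymes and summed inhibitors in fibroblast-like cells. Each had 12 to 16 of the alternatives, and other printed ratios were not recomputed. Of 465 such values, 434 stayed within the counting interval of the reported value, 31 moved outside it and none of the ratios beyond counting error changed sign. The summed enzymes in fibroblast-like cells were -0.28 with doublets kept, -0.31 with each cell named alone and -0.57 without Mmp3, and the summed inhibitors were -0.23 without Timp3. The cause was not tested, other than that the last 2 leave out a gene. Timp3 in fibroblast-like cells ranged from -2.02 to -1.64, outside its counting interval in 7 of 15 alternatives, and Mmp3 from -0.02 to 0.11, outside it in 3 of 15. Fibroblast-like cells numbered 224 and 238 as reported, but 253 and 270 at Leiden resolution 0.5 and 254 and 270 at 2.0. Mmp14 in macrophage-like cells was -0.90 with each cell named alone. Timp3 in hormone-responsive luminal-like cells ranged from 0.16 to 1.48, in endothelial-like cells from -0.92 to -0.02, and Timp1 in basal-like cells from 0.41 to 1.41. With free RNA subtracted, no value could be given for Mmp3 in hormone-responsive luminal-like cells, since it set the share, or in secretory luminal-like cells, where the CL level lay below that share. The subtraction of free RNA, leaving out the 3 richest cells, Mmp3, Timp3 or cluster 18, and adding cluster 9 were chosen after seeing the data. No paired analysis was possible because each group has 1 library. Depth limits Mmp11 most, with 131 UMIs.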
